A study of Sus scrofa with 8 samples.

Results

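TLR2, TLR4, TBK1 and IRF3 are 4 genes of innate sensing, followed here in the whole blood of pigs fed shochu distilled water (SDW), the residue left after distilling the Japanese spirit shochu, and of pigs on a control diet. They were taken by gene symbol or, for 1 TLR4 probe, by the full gene name in its description. Of the 43603 probes of the array 8 were matched, with 1 probe for TLR2, 4 for TLR4, 2 for TBK1 and 1 for IRF3. The animals were female Clawn miniature pigs 8 to 9 months old, labelled as conventional, and no allele or transgene is named for them. SDW animals (n = 4) ate standard dry feed mixed with equal weights of water and SDW, and control animals (n = 4) ate the standard dry feed. Blood was drawn after 12 weeks on the diets according to the design text. The descriptions of single samples instead name week 14 for replicate 1 of each diet, week 15 for replicate 2, week 16 for replicate 3 and week 17 for replicate 4. Each animal gave 1 blood sample in a PAXgene tube, which fixes the RNA of all blood cells at once, and each RNA was hybridised to 1 array with the dye Cy3.

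Toll-like receptors are membrane proteins by which phagocytes and other blood leukocytes sense microbial molecules. TLR2 binds bacterial lipoproteins together with TLR1 or TLR6, and TLR4 binds bacterial lipopolysaccharide together with LY96 and CD14. Both signal through the adaptor MYD88 to NF-kappa-B and inflammatory cytokines, and TLR4 also signals from endosomes through the adaptor TICAM1 to TBK1, a kinase that phosphorylates the transcription factor IRF3 and so switches on type I interferon.

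Each probe reads its gene through a single stretch of 60 bases. Shown are the probes that TLR2, TBK1 and IRF3 were read from, the second TBK1 probe and 2 of the other TLR4 probes, 1 of which differed from the rest in sign. In each, capitals mark the longest run of A and T.
TLR2 probe A_72_P088356: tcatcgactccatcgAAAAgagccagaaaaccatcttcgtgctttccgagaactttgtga
TLR4 probe A_72_P303724: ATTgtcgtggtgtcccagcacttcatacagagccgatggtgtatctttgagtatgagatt
TLR4 probe A_72_P419074: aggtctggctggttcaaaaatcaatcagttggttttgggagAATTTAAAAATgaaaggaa
TBK1 probe A_72_P254472: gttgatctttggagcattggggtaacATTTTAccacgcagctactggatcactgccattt
TBK1 probe A_72_P165061: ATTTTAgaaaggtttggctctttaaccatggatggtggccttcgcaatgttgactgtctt
IRF3 probe A_72_P165194: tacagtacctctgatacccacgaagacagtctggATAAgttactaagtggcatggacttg
The GC content was 45.0% for the probes of TLR2 and IRF3, for TLR4 probe A_72_P303724 and for TBK1 probe A_72_P254472. It was 41.7% for TBK1 probe A_72_P165061 and 35.0% for TLR4 probe A_72_P419074, against a median of 40.0% over all probes. The longest run of A and T was 11 bases in TLR4 probe A_72_P419074, against a median of 6 over all probes. The bases of TLR4 probes A_72_P180746, from which TLR4 was read, and A_72_P165431 are not shown. A_72_P180746 had a GC content of 35.0% and a run of 13 bases, so neither feature sets A_72_P419074 apart from it. The probe annotation places A_72_P419074 in another transcript cluster than the other TLR4 probes. A_72_P180746 was matched to TLR4 by the full gene name in its description, and the other member probes by gene symbol.

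Levels below are log2 of the processed signal over the 75th percentile of the same array, so a level of 0 is the 75th percentile and differences are SDW minus control. A probe was kept for testing where the scanner software's flag set it well above background in 4 or more of the 8 animals. In all, 17353 probes and 7 of the 8 member probes were kept. TLR4 probe A_72_P419074 was not. The 75th percentile was between 39.9 and 73.1 intensity units, and each array had between 35.2% and 43.6% of its probes flagged as well above background. Neither measure separated the diets (exact permutation test, two-sided, p = 0.83 for the percentile and p = 0.40 for the share). The 8 arrays lay on 3 slides, and the 2 arrays of slide 3, SDW 4 and control 1, were scanned on another day and stood apart from the other 6. On the first principal component of the kept probes, which held 42.8% of the variance, they scored 72.5 and 88.7, whereas the other 3 SDW arrays scored between −38.1 and −20.0 and the other 3 control arrays between −31.0 and −22.1. Because slide 3 holds 1 array of each diet, results are also given with slide as a block and without slide 3. In bulk blood, fewer cells of a type and less RNA per cell cannot be told apart.

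None of the 4 genes differed between the diets past an adjusted p of 0.05 in limma, where 0% of the 17353 kept probes did. At an unadjusted p under 0.05, limma called 1.45% of all kept probes and none of the 7 kept member probes. The diets overlapped at all 8 member probes, whereas 0.986% of kept probes did not overlap. All 7 kept member probes had a lower mean in SDW animals than in control animals, with differences between −1.07 and −0.22. Of all kept probes, 8176 were lower and 9177 higher, with a median difference of 0.02. That balance depended on the setting. Without a filter on dim probes 28511 probes were lower and 15092 higher (median −0.155), without control 4 it was 9372 and 7981, and scaled on the 75th percentile of probes well above background on all arrays 8777 and 8576.

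TLR2, the lipoprotein receptor, was well above background on all 8 arrays. Its level was 2.89, 3.17, 2.79 and 3.22 in SDW animals 1 to 4, against 3.42, 3.19, 3.45 and 3.47 in control animals 1 to 4. Control animals 1, 3 and 4 were above every SDW animal, and control 2 was just below SDW 4, which is the only place where the diets overlapped. The mean was 3.02 ± 0.21 in SDW animals and 3.38 ± 0.13 in control animals (SD, n = 4 each). The difference was −0.36 (SE 0.21, 95% interval −0.83 to 0.11, limma adjusted p = 1.00), and the exact permutation test over the 70 ways of choosing 4 of 8 animals gave p = 0.0571 (two-sided), where the smallest value it can give is 0.0286.

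TLR2 varied little between animals. Its SD over the 8 animals was 0.25, and 87.0% of kept probes varied at least as much. In this sample of 8, diet went with 58.4% of its variance and slide with 9.26%, whereas the medians over all kept probes were 4.97% for diet and 44.7% for slide. The difference had the same sign on each slide, with −0.47 on slide 1, −0.44 on slide 2 and −0.19 on slide 3. With slide as a block it was −0.38 (SE 0.21, limma adjusted p = 0.752). Its rank among all kept probes was 862 by unadjusted p, and 21.0% of kept probes differed between the diets by at least as much in either direction.

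TLR4, the lipopolysaccharide receptor, was read from probe A_72_P180746, its probe of highest mean level and well above background on all 8 arrays. Its level was 1.05, 0.87, 0.13 and 0.48 in SDW animals 1 to 4, against 1.15, 0.61, 0.69 and 1.03 in control animals 1 to 4. SDW 3 and SDW 4 were below every control animal, but SDW 1 was above 3 of the 4 control animals, so the diets overlapped widely. The mean was 0.63 ± 0.41 in SDW animals and 0.87 ± 0.26 in control animals (SD, n = 4 each), a difference of −0.24 (SE 0.27, 95% interval −0.83 to 0.36, limma adjusted p = 1.00). Within slides the difference was −0.19, 0.22 and −0.67 on slides 1, 2 and 3, so its sign was not the same on all slides.

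The other TLR4 probes were dimmer or more spread. Probe A_72_P165431 had levels of 0.84, 1.09, −0.24 and −0.14 in SDW animals 1 to 4, against 0.48, 0.37, 0.66 and 0.90 in control animals 1 to 4. Here SDW 1 and SDW 2 were above 3 or all of the control animals and SDW 3 and SDW 4 below all of them, with a difference of −0.22 (SE 0.34, limma adjusted p = 1.00). Probe A_72_P303724 had levels of −1.19, −0.49, −2.42 and −1.78 in SDW animals 1 to 4, against −1.24, −1.68, −1.22 and −0.52 in control animals 1 to 4. It was well above background on 3 SDW and 4 control arrays, was again lowest in SDW 3 and SDW 4, and had a difference of −0.30 (SE 0.42, limma adjusted p = 1.00).

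TLR4 probe A_72_P419074 was well above background on 2 SDW arrays and 1 control array. Its level was −1.99, −0.59, −2.67 and −2.86 in SDW animals 1 to 4, against −2.26, −3.35, −2.18 and −1.52 in control animals 1 to 4. It is the only member probe with a higher mean in SDW animals, with a difference of 0.30 (SE 0.52) in a fit without the filter on dim probes (limma adjusted p = 0.974). Its correlation with the lead probe over the 8 arrays was 0.51, while the 3 kept TLR4 probes correlated with each other at 0.79 to 0.93. These correlations come from the same 8 arrays and share their scaling.

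**Figure D1:**
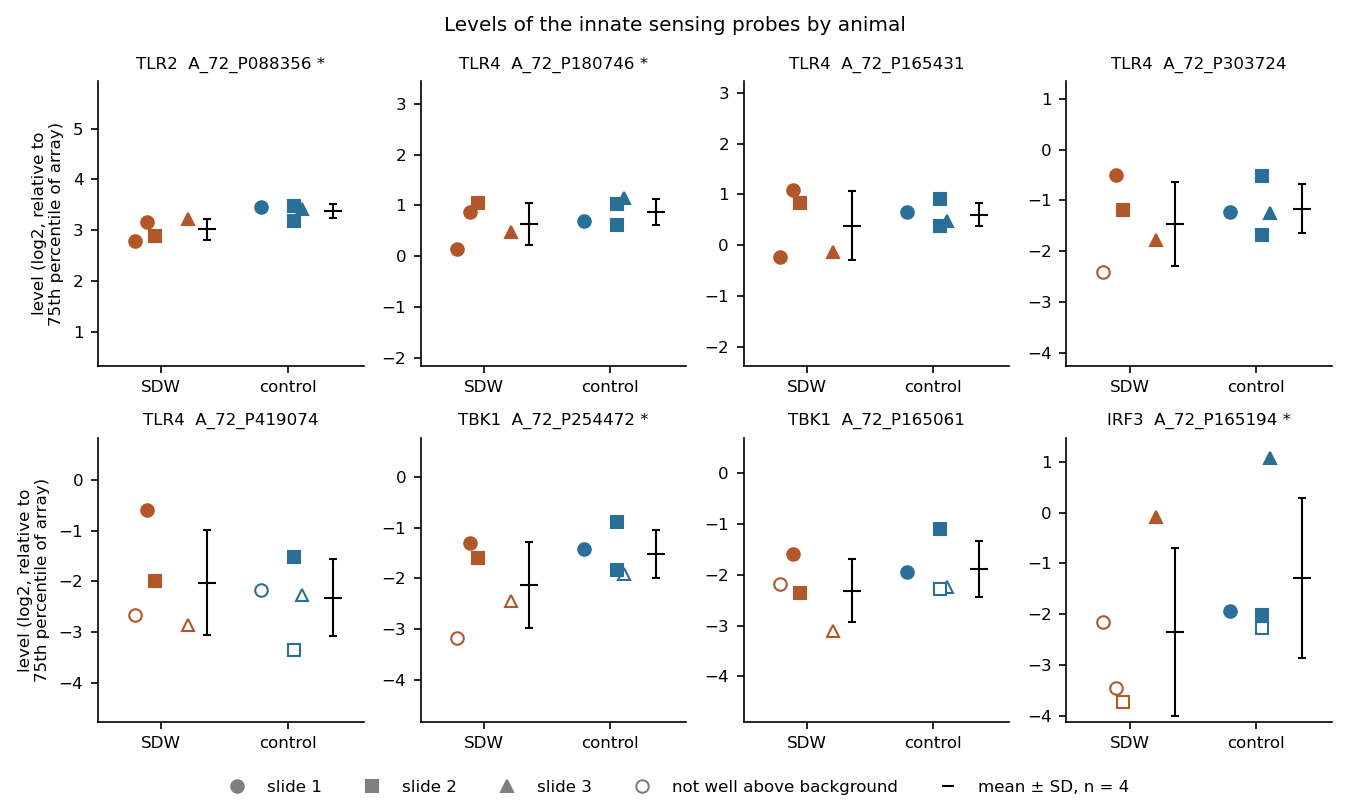
Level of the 8 member probes in each animal (log2 of the processed signal over the 75th percentile of the array), with SDW left of control and symbols by slide. Horizontal bars with whiskers are group means ± SD (n = 4), an asterisk marks the probe each gene was read from, and open symbols are arrays on which the probe was not well above background. The diets overlap at every probe, and the IRF3 points of slide 3 lie above those of the other slides.

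TBK1, the kinase between TLR4 and IRF3, was measured near background by both of its probes. Probe A_72_P254472, the brighter, was well above background on 2 SDW and 3 control arrays. Its level was −1.61, −1.31, −3.17 and −2.46 in SDW animals 1 to 4, against −1.92, −1.84, −1.42 and −0.89 in control animals 1 to 4. SDW 3 and SDW 4, the 2 lowest, were below all control animals and were the SDW arrays on which the probe was not well above background, while SDW 1 and SDW 2 lay within the control range. The mean was −2.14 ± 0.85 in SDW animals and −1.52 ± 0.48 in control animals (SD, n = 4 each). The difference was −0.62 (SE 0.42, 95% interval −1.56 to 0.32, limma adjusted p = 1.00), and it was −0.82, −0.24 and −0.53 on slides 1, 2 and 3.

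The second TBK1 probe, A_72_P165061, was well above background on 2 arrays of each diet. Its level was −2.37, −1.59, −2.18 and −3.10 in SDW animals 1 to 4, against −2.24, −2.29, −1.95 and −1.09 in control animals 1 to 4. SDW 4 was lowest and control 4 highest, and the difference was −0.42 (SE 0.38, limma adjusted p = 1.00). Within slides it was 0.06, −0.68 and −0.87. The TBK1 probes correlated with each other at 0.67 over the 8 arrays, less closely than probe A_72_P254472 did with TLR4 probe A_72_P303724, at 0.93.

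IRF3, the transcription factor that TBK1 phosphorylates, had both the largest mean difference of the 4 genes and the largest spread. Its processed signal was 4.62, 6.70, 8.98 and 37.7 intensity units in SDW animals 1 to 4, against 117, 10.5, 10.8 and 14.6 in control animals 1 to 4. Its level was −3.72, −3.45, −2.16 and −0.08 in SDW animals 1 to 4, against 1.08, −2.27, −1.93 and −2.01 in control animals 1 to 4. The probe was well above background on 1 SDW array, SDW 4, and on control arrays 1, 3 and 4, so the lowest levels are those of arrays where the spot was not well above background. Control 1 was highest, SDW 4 was next, and SDW 1 and SDW 2 were lowest. The mean was −2.35 ± 1.66 in SDW animals and −1.28 ± 1.58 in control animals (SD, n = 4 each), a difference of −1.07 (SE 0.91, 95% interval −3.11 to 0.97, limma adjusted p = 1.00).

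The 2 highest IRF3 arrays were the 2 arrays of slide 3. IRF3 averaged 0.50 on slide 3 (n = 2) and −2.59 on the other slides (n = 6), and slide accounted for 79.4% of its variance against 12.7% for diet. Its SD over the 8 animals was 1.61, a spread reached by 0.957% of kept probes, and a diet difference of its size was reached by 0.761% of them. Within slides the mean of IRF3 was lower in SDW animals each time, with differences of −0.87 on slide 1, −1.58 on slide 2 and −1.16 on slide 3. On slides 1 and 2 no SDW array was well above background for this probe, so the sizes there are taken against signal at background, and with normexp background correction the difference over all arrays was −0.31 (SE 0.33). With slide as a block the difference was −1.21 (SE 0.31), with a limma adjusted p of 0.732. In that fit IRF3 was 1 of 1143 kept probes (6.59%) with an unadjusted p under 0.05, and 1 of 554 (3.19%) that were also lower in SDW. With slide as a random block IRF3 did not pass it, at −1.15 (SE 0.65, limma adjusted p = 0.987). The other 3 genes did not pass it with the fixed block. Without slide 3, which leaves 3 animals a diet, the difference was −1.04 (SE 0.39), and without control 1 alone it was −0.28.

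**Figure D2:**
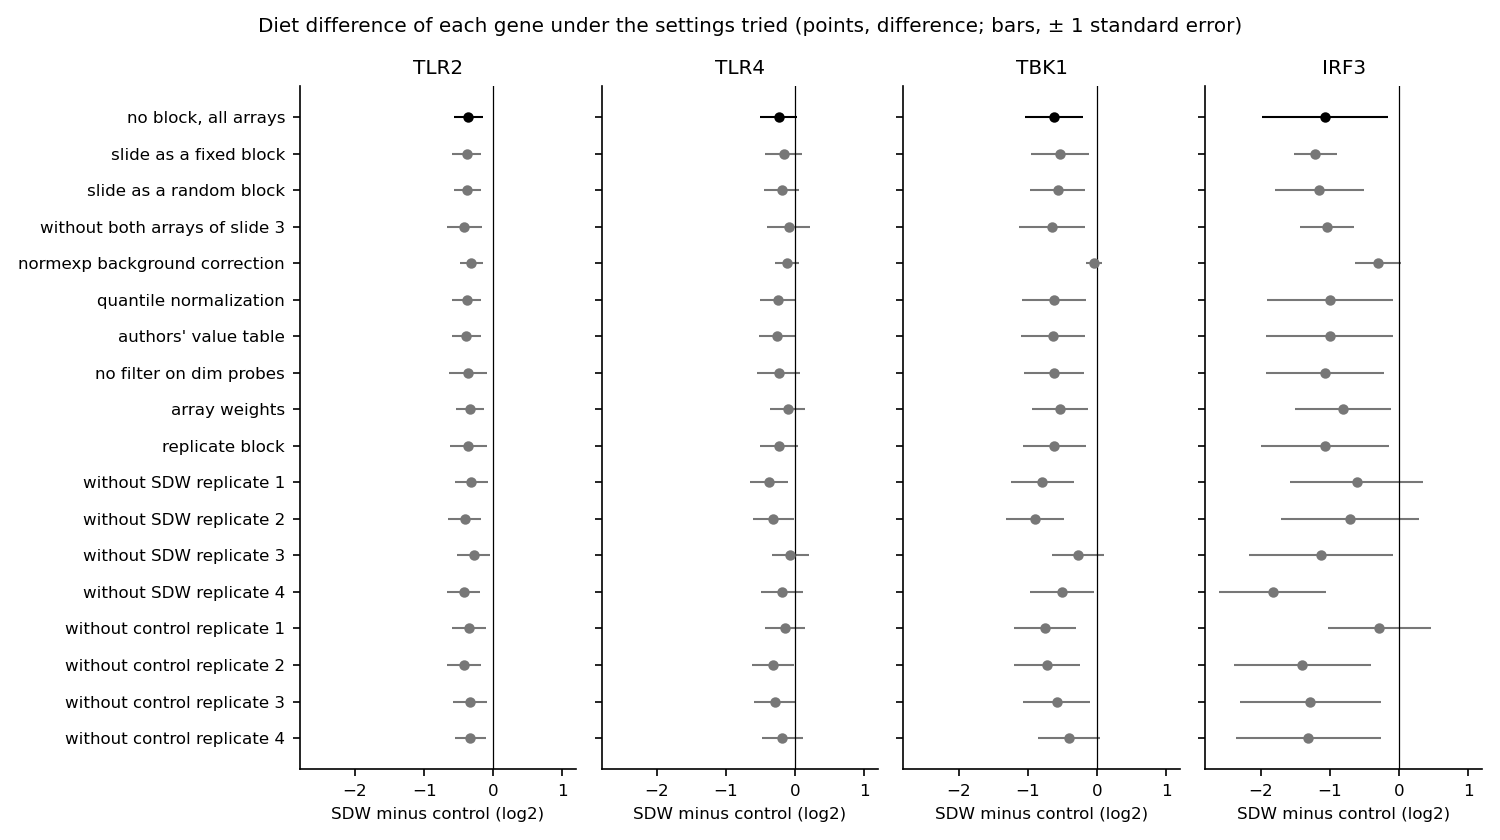
SDW minus control (log2) of the lead probe of each gene under the ways of processing named on the axis, with the standard error as the bar. The points stay below 0 for TLR2, TLR4, TBK1 and IRF3, and the bar of IRF3 is narrower with slide as a block (0.31) than without it (0.91).

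The 4 genes did not all move together from animal to animal. SDW 3 was below the mean of the 8 arrays for all 4 genes, at −0.41 for TLR2, −0.62 for TLR4, −1.35 for TBK1 and −0.34 for IRF3 on the log2 scale. Control 2 also had all 4 on the low side, but close to the mean for TLR2 (−0.01), TLR4 (−0.14) and TBK1 (−0.02). The other 6 animals had members on both sides of the mean. SDW 1 and SDW 2 had TLR4 (0.29 and 0.12) and TBK1 (0.22 and 0.52) above the mean, with IRF3 far below it (−1.90 and −1.63). SDW 4 had IRF3 at 1.73 above the mean with TBK1 at −0.63. Control 1 had IRF3 at 2.90 and TBK1 at −0.09, and control 4 had TBK1 at 0.94 and IRF3 at −0.19. Over the 8 arrays the lead probes of TLR4 and TBK1 correlated at 0.78, those of TLR2 and TBK1 at 0.62 and those of TLR2 and TLR4 at 0.50. IRF3 correlated with TLR2 at 0.48, with TLR4 at 0.04 and with TBK1 at −0.30. Without slide 3 (n = 6) IRF3 correlated with TLR2 at 0.47, with TLR4 at −0.47 and with TBK1 at −0.15.

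Averaged over the receptors TLR2 and TLR4, the deviation was −0.01, 0.04, −0.51 and −0.12 in SDW animals 1 to 4, against 0.31, −0.08, 0.09 and 0.27 in control animals 1 to 4. Averaged over TBK1 and IRF3, it was −0.84, −0.55, −0.84 and 0.55 in SDW animals 1 to 4, against 1.40, −0.24, 0.15 and 0.38 in control animals 1 to 4. At the lead probes TBK1 and IRF3 spread more widely between animals than the receptors did, but theirs were also the dimmer probes. The SD over the 8 arrays was 0.72 for TBK1 and 1.61 for IRF3. It was 0.64 and 0.85 for the dim TLR4 probes A_72_P303724 and A_72_P419074. The median SD of kept probes of mean level −3 to −1 was 0.61. The high values of SDW 4 and control 1 were those of IRF3.

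Array brightness moved with TLR4 and TBK1. The correlation with log2 of the array's 75th percentile over the 8 arrays was between 0.74 and 0.83 for the 4 TLR4 probes and 0.66 and 0.54 for TBK1 probes A_72_P254472 and A_72_P165061, against a median of 0.04 over all kept probes. It was 0.07 for TLR2 and −0.41 for IRF3. With the share of probes well above background, the correlation was −0.79 for IRF3 and −0.18 for TLR2. It was between 0.24 and 0.65 for the TLR4 and TBK1 probes, against a median of 0.02 over all kept probes. Both medians are of signed correlations, so they do not show how many probes reach values as large in either direction. For kept probes of mean level −3 to −1 the median correlation with the percentile was −0.02. The percentile was 61, 73.1, 40.2 and 39.9 intensity units in SDW animals 1 to 4, against 55.2, 50.6, 41.2 and 58.6 in control animals 1 to 4. SDW 3 and SDW 4, low at the lead probes of TLR4 and TBK1, were the dimmest arrays of all. Control 3 was nearly as dim, with deviations of −0.06 for TLR4 and 0.41 for TBK1. The second TBK1 probe deviated by −0.08 in SDW 3. The part of array brightness and of the share well above background in these differences was not tested.

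**Figure D3:**
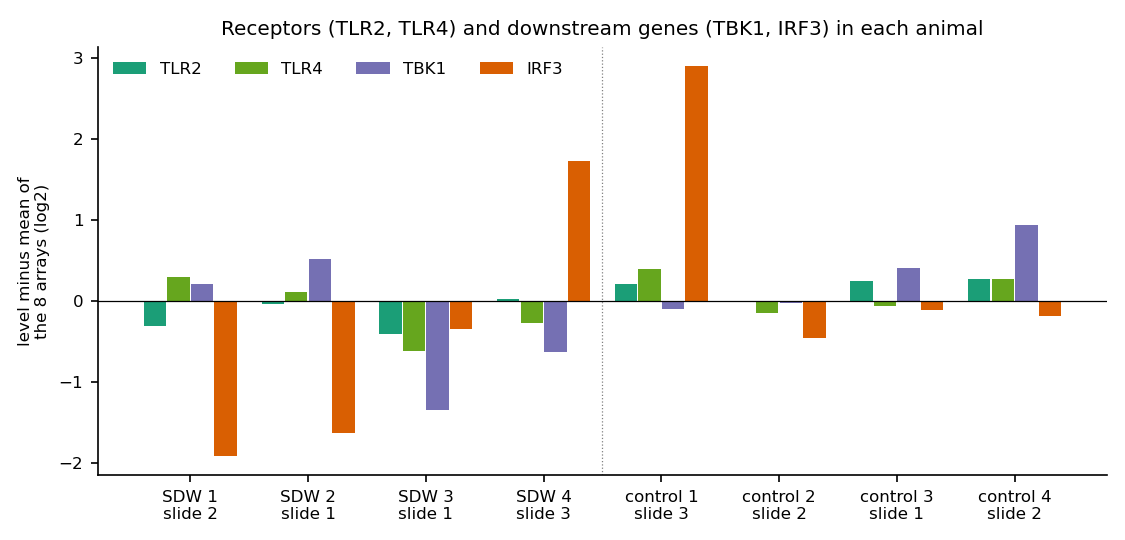
Deviation of TLR2, TLR4, TBK1 and IRF3 from their mean over the 8 arrays (log2) in each animal, SDW before control, with the slide under each animal. IRF3 reaches 1.73 in SDW 4 and 2.90 in control 1, both on slide 3, and SDW 3 is below 0 for all 4 genes.

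The named genes whose levels followed each member most closely were taken by Pearson correlation with its lead probe over the 8 arrays, among 1050 genes. For TLR2 these were CAPN3, a calcium-dependent protease (r = 0.83), TNFRSF1A, the main receptor of tumour necrosis factor (0.80), and ARPP19, an inhibitor of protein phosphatase activity (0.80). For TLR4 they were FABP5, a fatty acid carrier (0.88), JAK2, a kinase of cytokine receptors (0.87), and ZFAND5 (0.83). For TBK1 they were TRA2B, a splicing factor (0.93), TLR1, the partner of TLR2 (0.87), and RAN, the nuclear transport GTPase (0.87). For IRF3 they were NCF1, a subunit of the phagocyte NADPH oxidase, ST6GALNAC4, a sialyltransferase, and IGF2, a growth factor, each with a correlation of 0.99.

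IRF3 had far more such followers than the other members. Of 17343 kept probes with a value on every array, 608 (3.51%) had a correlation with IRF3 above 0.9, against 3 for TLR2, 19 for TLR4 and 35 for TBK1. Below −0.9 there were 410 for IRF3, 14 for TLR2, 5 for TLR4 and 8 for TBK1. Such counts were taken for the members only, so they are not set against those of other kept probes. IRF3 also followed the first principal component, the axis on which slide 3 stood apart, at r = 0.92, against 0.27 for TLR2, 0.10 for TLR4 and −0.36 for TBK1. Without slide 3 (n = 6) the correlation with IRF3 was 0.99 for NCF1, 0.97 for ST6GALNAC4 and 0.99 for IGF2. NCF1 was at 0.71, 0.70, 1.74 and 3.54 in SDW animals 1 to 4, against 4.00, 1.72, 2.04 and 1.96 in control animals 1 to 4, highest in control 1 and SDW 4 and lowest in SDW 1 and SDW 2 as for IRF3, over a narrower range.

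**Figure D4:**
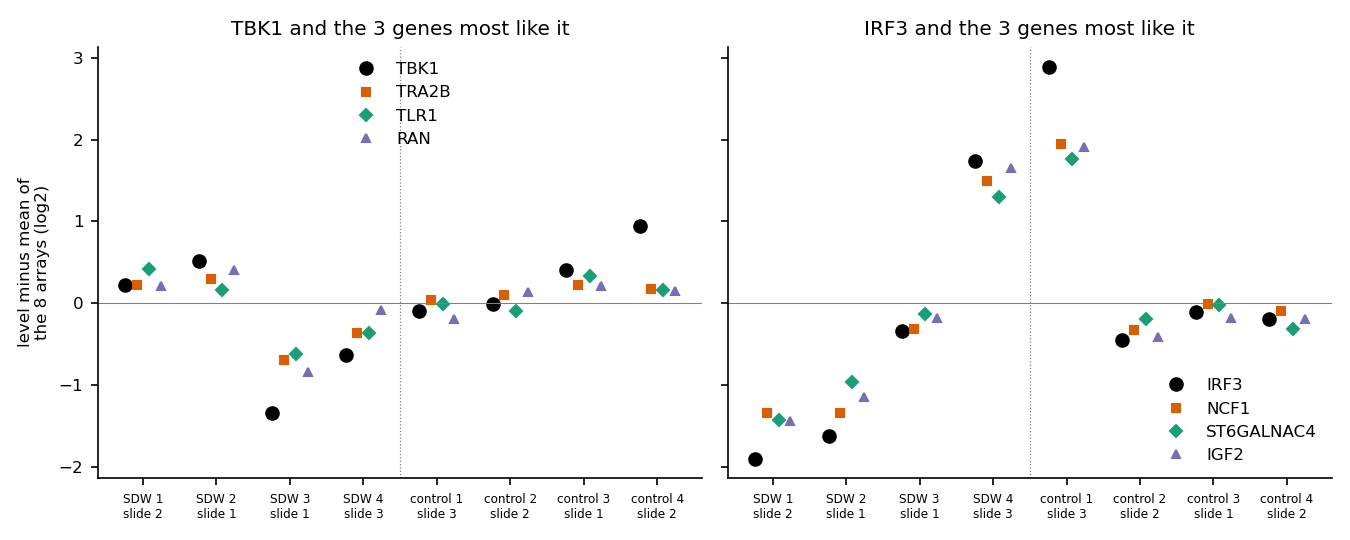
Deviation from the mean over the 8 arrays (log2) of TBK1 and IRF3 and of the 3 named genes most correlated with each, per animal, with the slide under each animal. The 3 genes beside IRF3 are highest in SDW 4 and control 1 and lowest in SDW 1 and SDW 2, and the 3 beside TBK1 are lowest in SDW 3.

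Of 15 Toll-like receptors and co-receptors listed, 14 had a probe named here and 12 a kept probe. None passed the limma test, none passed an unadjusted p of 0.05, and the diets overlapped for all 12. Their means were lower in SDW animals for 9 genes and higher for 3, with a median difference of −0.18. That median was 0.017 without control 3. CD14, which hands lipopolysaccharide to TLR4, had levels of 2.22, 2.96, 3.02 and 4.48 in SDW animals 1 to 4, against 4.58, 3.01, 4.21 and 3.77 in control animals 1 to 4. Its highest values were those of SDW 4 and control 1 on slide 3, as for IRF3, and its difference was −0.73 (SE 0.49, limma adjusted p = 1.00). LY96, which binds lipopolysaccharide within the TLR4 complex, differed by −0.16, TLR1 by −0.20, TLR6 by −0.07 and TLR7, an endosomal sensor of single-stranded RNA, by 0.37. TLR3 was not well above background on any array, and TLR9 was so on 1.

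Of 24 adaptors and kinases of Toll-like receptor signalling, 7 had a probe named here and 6 a kept probe. Of these 6, 5 were lower and 1 higher in SDW animals, with a median difference of −0.45. The median was −0.20 without SDW 1, −0.20 without control 4 and −0.15 with normexp. None passed the limma test or an unadjusted p of 0.05. MYD88, the adaptor shared by TLR2 and TLR4, had levels of 7.41, 8.40, 9.56 and 7.62 in SDW animals 1 to 4, against 7.34, 8.10, 9.77 and 8.88 in control animals 1 to 4, and differed by −0.28. TRAF6, the ubiquitin ligase that MYD88 signalling uses, differed by −0.76, with 3.47 in control 4 and −0.77 to 0.02 in the other 7 animals. IKBKG, the regulatory subunit of the kinase that frees NF-kappa-B, differed by −0.70, and its highest levels were 0.34 in SDW 4 and 0.94 in control 1. No probe was named here for TICAM1, TRAF3 or IKBKE, so the step between TLR4 and TBK1 was measured through TBK1 alone.

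Of 15 transcription factors and inhibitors downstream, 8 had a probe named here and 6 a kept probe. Of these 6, 4 were lower and 2 higher in SDW animals, with a median difference of −0.17. Leaving out 1 animal moved the median between −0.05 (without control 1) and −0.35 (without control 4). None passed the limma test or an unadjusted p of 0.05. IRF3 had the largest difference of the 6. IRF7, the interferon-induced relative of IRF3, differed by −0.15 at its brighter probe and by −0.95 at its other kept probe. NFKBIA, the inhibitor that holds NF-kappa-B in the cytoplasm, differed by −0.24 and NFKB1, an NF-kappa-B subunit, by −0.18.

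The genes that these pathways switch on showed no diet difference past the thresholds either. Of 20 inflammatory outputs, 16 had a probe named here and 9 a kept probe. Of these 9, 7 were lower and 2 higher in SDW animals. Their median difference was −0.17, with no gene at an unadjusted p under 0.05. The median was −0.01 without control 1, with 5 lower and 4 higher, and −0.04 without control 2 or without SDW 3. The chemokine CCL4 differed by −0.61, the mitochondrial superoxide dismutase SOD2 by −0.41 and the anti-inflammatory cytokine IL10 by 0.29. IL6, CXCL8, IL12A, IL12B and CCL2 were not well above background on any array. Of 21 interferon-induced genes, 10 had a probe named here and 9 a kept probe. Of these 9, 7 were lower and 2 higher, with a median difference of −0.10, and none passed an unadjusted p of 0.05. OAS2, an antiviral oligoadenylate synthetase, differed by −1.12, with 10.5 in control 1, and by 0.04 without slide 3. OAS1 differed by 0.14 at its brighter probe and STAT2 by −0.15. For each of the 2 genes counted as higher, OAS1 among them, the other kept probe had the opposite sign. IFNB1, the interferon gene that IRF3 acts on, was not well above background on any array.

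Some cytosolic sensors and their adaptors, though not all of the 17 listed, reach TBK1 and IRF3 without Toll-like receptors. Of the 17, 5 had a probe named here and 4 a kept probe. Of these 4, 2 were lower and 2 higher, with a median difference of −0.14. None passed an unadjusted p of 0.05. The RNA sensors DDX58 and IFIH1 differed by −0.57 and −0.45, and the protease CASP1 by 0.36. Without slide 3 the median was 0.29 for the cytosolic sensors and 0.28 for the interferon-induced genes, and without control 1 alone it was 0.11 and 0.33, so neither list kept its sign. The median of the cytosolic sensors was also above 0, at 0.02, with normexp background correction.

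**Figure D5:**
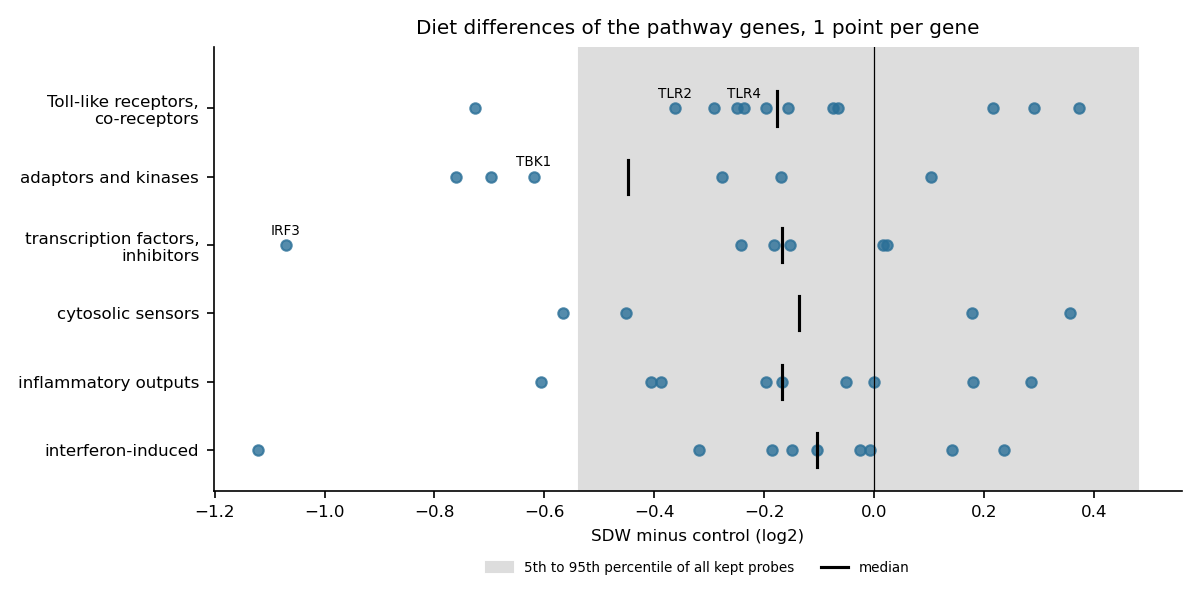
SDW minus control (log2) of each kept gene of the 6 pathway lists, 1 point per gene, with the list median as a bar and the range from the 5th to the 95th percentile of all kept probes in grey. IRF3 at −1.07 and TBK1 at −0.62 lie left of the grey range, and TLR2 at −0.36 and TLR4 at −0.24 lie within it.

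Markers of blood cells were read by diet beside the members, without a correlation between a marker list and a member. All 5 kept neutrophil markers of 16 listed (5 of 5 named) had lower means in SDW animals, with a median difference of −0.76 (−0.43 without slide 3) and none past an unadjusted p of 0.05. Their means stayed lower in SDW animals under each scaling, background correction and left-out animal tried. The mean deviation of the 5 was −0.22, −0.74, −0.50 and 0.23 in SDW animals 1 to 4, against 1.11, −0.31, 0.46 and −0.04 in control animals 1 to 4. Summed on the linear scale relative to the 75th percentile, they ranged from 414 to 728 in SDW animals and from 540 to 875 in control animals. Their brightest genes were ALOX5AP, which helps make leukotrienes, and MMP9, a gelatinase of neutrophil granules. NCF1, the gene most like IRF3, is 1 of these 5 markers, but the 5 did not share its pattern. Slide 3 minus the other slides was 2.30 for NCF1, 1.44 for TREM1, 0.72 for LTF, 0.06 for ALOX5AP and −0.05 for MMP9. It was 3.09 for IRF3. MMP9 was highest in SDW 1, where IRF3 was lowest. Markers of other cells lay on both sides, such as GATA2 at 1.93 and CCR3 at −1.12 in the eosinophil and basophil list.

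Monocyte markers were divided. Of 12 listed, 7 had a probe named here and 6 were kept, 3 of them higher and 3 lower. The sum of the 6 ranged from 105 to 124 in SDW animals and from 92.3 to 167 in control animals. The brightest were SIRPA, an inhibitory receptor, and LYZ, lysozyme. VCAN was not well above background on any array. The 4 kept eosinophil and basophil markers, with ALOX15, a lipoxygenase, and GATA2, a transcription factor, the brightest, had sums of 68.2 to 141 in SDW animals and 37.8 to 74.5 in control animals. Of these 4, 3 were higher in SDW animals, and GATA2 was lower (difference −0.21). ALOX15, at a mean level of 6.20 in SDW animals against 2.41 for GATA2, weighed most in these sums. Of the 6 kept T cell markers, 3 were higher and 3 lower in SDW animals, with a median difference of −0.09. Their sums were 56.4 to 87.3 in SDW animals and 39.8 to 71.6 in control animals. The T cell receptor chains CD3D and CD3E were the brightest. CD3D, at a mean level of 5.69 in SDW animals against 1.98 for CD3E, weighed most in the sums. The 2 kept NK cell markers, GNLY and KLRK1, were lower in SDW animals on average (differences −0.71 and −0.57). GNLY had an unadjusted limma p of 0.039, where 1.45% of all kept probes were under 0.05. Neither marker passed the adjusted threshold. The 5 kept platelet markers, with SELP and ITGA2B the brightest, had sums of 85.1 to 149 in SDW animals and 80.5 to 142 in control animals. Neutrophil, monocyte, T cell, NK cell and platelet markers were thus present, as whole blood should hold, while none of 10 erythroid markers was named. The part of cell makeup in the differences of the 4 genes was not tested.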

How the data were processed

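Whole-blood RNA of 8 pigs was measured on Agilent 1-colour arrays. Per the file headers, the deposited values are linear spot intensities from Agilent Feature Extraction 10.1.1.1 (9.5.3.1 per the submitters' processing notes), background-subtracted and detrended but not normalized between arrays. The authors' value table holds normalized intensities of the same arrays by a method not given in the sources used here. In it, 7 of 8 columns matched the scanner file of a different replicate than their label names, always within one diet. Which source has the right replicate numbers cannot be told apart here. Animals are numbered by the scanner files throughout, which leaves the diet comparison unaffected but makes the animal numbers, and the weeks tied to them, uncertain.

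Spots marked as controls or outliers were removed and repeated spots of a probe averaged. Intensities were divided by the array's 75th percentile, and log2 values were fitted with limma 3.58.1 in R 4.3.3 (moderated linear models with two-sided p-values, adjusted by Benjamini-Hochberg across 17353 kept probes). The brightest kept probe on average stood for a gene. Gene names came from accessions, symbols, synonyms or descriptions in the files, matched to RefSeq and gene-name tables, and 2867 of 43603 probes were named. Probe sequences are those of the deposited files. No genome build is named in the files, so no positions are given.

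Named were all member probes, the 3 genes most correlated with each member, the 3 genes of smallest unadjusted p in each pathway list, the brightest 2 of each marker list described and the direct partners of the members. CCR2, TLR6, TLR1 and the genes not above background were added after their values were seen. The members and lists were chosen with earlier results of these data known. Replicates are separate animals per the labels. Precision was limited by the number of arrays, 4 a diet, by differences between slides and, for TBK1 and IRF3, by signal near background. Deviations of same-numbered animals correlated at −0.17, 0.11, 0.33 and −0.38 for replicates 1 to 4, with only replicate 3, whose arrays share a slide, closest to its own number. The descriptions give same-numbered animals the same week but name no shared litter, batch or day, so the numbers were not treated as pairs. The statistics were tested on simulated data.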

Additional observations from a re-analysis of the deposited data

Results flagged for a closer look

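Among 52 sets of 4 animals examined, 4 held an animal far from the other 3 of its diet, and chance gives such a set about 1 time in 20. IRF3 was at 1.08 in control 1, with the other control animals between −2.27 and −1.93. OAS2 was at 10.5 in control 1, with the others between 7.29 and 7.78. TRAF6 was at 3.47 in control 4, with the others between −0.77 and −0.26. IFIH1 was at 1.71 in SDW 2, with the other SDW animals between −0.24 and 0.04. For IRF3 the animal lies on slide 3, as does SDW 4, the highest SDW animal. The cause was not tested.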

How the results depend on the processing

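The differences of TLR2, TLR4, TBK1 and IRF3 kept their sign and an adjusted p above 0.05 under every alternative run, except that TLR4 was 0.30 when read from probe A_72_P419074. Leaving out 1 animal gave ranges of −0.43 to −0.29 for TLR2, −0.37 to −0.07 for TLR4, −0.90 to −0.27 for TBK1 and −1.83 to −0.28 for IRF3. With normexp background correction TBK1 was −0.04 and IRF3 −0.31. The filter that required all 8 arrays gave no value for TBK1 and IRF3. The count of probes at an unadjusted p under 0.05, 251, was 162 with normexp, 165 with that stricter filter, 823 without a filter, 543 without slide 3, 631 with slide as a random block, 1143 with it as a fixed block and 1168 in the authors' table with slide as a block (added after seeing the data). It was 179 to 518 when 1 animal was left out, with 420 without control 1, 441 without SDW 3 and 518 without SDW 4. The count at an adjusted p under 0.05 was 1 without slide 3 and 0 otherwise. The median of the Toll-like receptor list was −0.28 (without SDW 1) to 0.017 (without control 3) when 1 animal was left out. With the replicate number as a block the unadjusted count was 239, the adjusted count 0, and IRF3 kept a difference of −1.07. In no alternative was the cause of a shift tested.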

Other observations

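The second probe of CD14 was well above background on 4 arrays and had levels of −5.00, −2.88, −2.64 and 0.04 in SDW animals 1 to 4, against 0.18, −3.10, −1.65 and −1.16 in control animals 1 to 4. The monocyte chemokine receptor CCR2 was at 2.70, 2.63, 3.1 and 2.31 in SDW animals 1 to 4, against 1.63, 2.02, 1.98 and 1.59 in control animals 1 to 4. It was the only kept monocyte marker whose diets did not overlap, with a difference of 0.88 (SE 0.24, limma adjusted p = 1.00). Among all kept probes, 0.986% did not overlap.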
